A study of Homo sapiens and Mus musculus with 18 samples.

Results

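The 8 genes described here are OTX2, ZIC2, ZIC5, SALL2, POU3F1, THY1, SFRP2 and CD24, which carry transcription factors, surface proteins and a secreted protein associated with the primed epiblast state. They are 8 of 44910 genes in the human count table, and 7 of them were found under the same name among 29720 mouse genes. Their identifiers in the human table are ENSG00000165588 (OTX2), ENSG00000043355 (ZIC2), ENSG00000139800 (ZIC5), ENSG00000165821 (SALL2), ENSG00000185668 (POU3F1), ENSG00000154096 (THY1), ENSG00000145423 (SFRP2) and ENSG00000272398 (CD24). No mouse gene of the table is called Cd24, so Cd24a is given beside the mouse members and is not counted among them. The members were chosen by earlier measurements of these samples, in which THY1 and SFRP2 gave some of the largest rises from naïve to primed H9 cells, so that contrast is described here and not tested. The study followed stem cells into gastruloids, aggregates that develop some features of the gastrulating embryo, in human and mouse cells. RNA-seq of 18 samples was analysed, 2 biological replicates for each of 9 groups.

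Human groups begin with 2 embryonic stem cell (ESC) lines, H9 and RUES2-GLR, both established lines. Naïve H9 ESCs had been chemically reset, grown in PXGL medium on irradiated mouse embryonic fibroblast feeders and then passaged without feeders. Primed H9 and primed RUES2-GLR ESCs are labelled as separate groups, and primed cells were grown in StemFlex on Geltrex. RA-gastruloids came from RUES2-GLR ESCs treated with CHIR99021, a WNT pathway activator, and then with CHIR99021 plus retinoic acid (RA) before aggregation. The medium used for aggregation also held CHIR99021. Early RA-gastruloids were sampled at 24 h and late RA-gastruloids at 120 h after induction. Between these times, Matrigel and RA were added to the late ones. The mouse groups all came from E14Tg2a cells. They are naïve ESCs in 2iLif medium, epiblast-like cells (EpiLCs) made with activin A and bFGF, and early and late gastruloids made directly from naïve ESCs with a pulse of CHIR99021. Mouse gastruloids were therefore not derived from the EpiLC samples, and human naïve cells are from another line than the gastruloids. Early mouse gastruloids were sampled at a later hour after induction than early RA-gastruloids. Late mouse gastruloids were likewise sampled at a later hour than late RA-gastruloids. Stages of the same name are therefore not matched in time between the species.

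Naïve pluripotency is the state of the epiblast before implantation, and primed pluripotency that of the epiblast after it, shortly before gastrulation. OTX2, a homeodomain factor, and POU3F1 (OCT6), a POU factor, are classical regulators of the exit from the naïve state and also act in anterior and neural development. ZIC2 and ZIC5 are zinc finger factors of neighbouring genes, and SALL2 is a zinc finger factor of the spalt family. THY1 (CD90) and CD24 are glycosylphosphatidylinositol-anchored surface glycoproteins used to separate primed from naïve human cells, and SFRP2 is a secreted modulator of WNT signalling.

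Reference sequence of promoter windows of these genes differed in the number of CpG dinucleotides. RefSeq promoter windows on GRCh38.p14, running from 250 bases before to 50 after a start, were found for 7 of the 8 members, all but THY1, in 12 windows of which 5 lie at the start given in the count table. POU3F1 held 49 CpG dinucleotides in its window at chr1:38046744-38047043, more than 98.4% of 35116 windows. The window of SALL2 at chr14:21537072-21537371 held 3, but unlike that of POU3F1 it is not at the start in the count table. The median over all windows was 14. The windows of ZIC2, ZIC5 and SFRP2 are shown because ZIC2 and ZIC5 are neighbours transcribed away from each other, with starts 10017 bases apart, and because SFRP2 alone of the 5 windows held either motif searched. The motifs were the octamer read by POU factors, ATGCAAAT or its reverse complement ATTTGCAT, and the core read by OTX factors, TAATCC or GGATTA, on both strands, and these motifs do not overlap each other in the windows shown. Capitals mark a match, and ZIC2 and ZIC5 hold none.
ZIC2 promoter, chr13:99981534-99981833, plus strand: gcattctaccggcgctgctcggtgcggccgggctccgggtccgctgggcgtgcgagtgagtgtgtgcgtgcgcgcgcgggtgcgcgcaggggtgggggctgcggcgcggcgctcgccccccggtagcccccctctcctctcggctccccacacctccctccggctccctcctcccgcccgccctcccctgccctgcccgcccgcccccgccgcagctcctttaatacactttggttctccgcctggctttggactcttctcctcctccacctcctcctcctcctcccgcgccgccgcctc
ZIC5 promoter, chr13:99971718-99972017, minus strand: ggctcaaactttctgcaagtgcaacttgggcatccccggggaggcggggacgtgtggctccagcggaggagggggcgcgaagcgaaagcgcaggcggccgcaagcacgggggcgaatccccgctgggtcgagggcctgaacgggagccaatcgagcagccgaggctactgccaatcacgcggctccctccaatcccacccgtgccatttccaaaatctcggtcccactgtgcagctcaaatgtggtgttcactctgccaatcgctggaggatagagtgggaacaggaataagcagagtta
SFRP2 promoter, chr4:153789034-153789333, minus strand: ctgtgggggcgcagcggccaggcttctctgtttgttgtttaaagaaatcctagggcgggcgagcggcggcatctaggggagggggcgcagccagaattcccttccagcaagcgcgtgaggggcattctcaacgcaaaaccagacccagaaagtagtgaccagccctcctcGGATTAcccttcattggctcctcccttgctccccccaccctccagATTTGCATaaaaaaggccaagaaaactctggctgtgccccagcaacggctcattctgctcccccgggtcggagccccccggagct
In SFRP2 the octamer spans bases 35 to 28 before the start and the OTX core bases 80 to 75 before it. The octamer was present in 623 of the 35116 windows (1.77%) and the OTX core in 2234 (6.36%). Another OTX core lay in a CD24 window that is not at the start in the count table. These matches describe letters only.

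Total counts ranged from 3681739 to 38771193 per human sample and from 6487157 to 20052505 per mouse sample, so 3 counts, the most that an observed 0 is compatible with, equal 0.0774 to 0.8148 CPM in human and 0.1496 to 0.4625 CPM in mouse. CPM are counts scaled to a common library size with TMM factors and are read between samples for 1 gene. TPM also divide by gene length and are used only to compare genes within a group. Primed RUES2-GLR libraries stood apart, since 21.4% to 22.4% of their counts fell on mitochondrial genes, against 2.68% to 6.71% in the other human samples and 1.64% to 3.65% in mouse. Both samples of a stage share their collection batch, so stage and batch cannot be told apart, and p-values measure the spread between these samples only. Replicates differed most in late RA-gastruloids and naïve H9, with a chi-square per degree of freedom of 13.83 and 8.077. The other human groups had 1.545 to 3.183. The fit pools spread over the groups of a species, so p-values for late RA-gastruloids rest partly on closer replicates of other groups. In bulk samples, fewer cells of a type and less RNA per cell cannot be told apart. POU5F1, NANOG and SOX2, the defining genes of ESCs, summed to at least 1032 CPM in every human ESC sample and 1173 CPM in mouse naïve ESCs and EpiLCs. NANOG had no count in late RA-gastruloids. A gene was called changed where its edgeR quasi-likelihood test had a p below 0.05 after Benjamini-Hochberg adjustment across the genes tested, with a log2 fold change above 1 in size. The SE given with a log2 fold change is the size of that change divided by the square root of the test's F statistic. It is an approximation, and for genes with few counts it can be smaller than the counting error. All 8 human and all 7 mouse members passed the filter on low counts, among 18300 and 15003 genes tested.

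In human cells, every member had its highest mean level in a primed group, 6 of 8 in RUES2-GLR and 2 of 8, SALL2 and POU3F1, in H9. The lowest mean was in naïve H9 ESCs for 6 members and in late RA-gastruloids for OTX2 and POU3F1. This order holds in part by the choice of members and is a description. Within primed RUES2-GLR ESCs, SFRP2 was the most abundant member per length at 2374 ± 173 TPM (SD, n = 2) and CD24 followed at 1526 ± 98.8 TPM. ZIC5, at 44.6 ± 4.1 TPM, was the least abundant member there. In late RA-gastruloids CD24 stood at 743 ± 92.5 TPM, SFRP2 at 659 ± 48.4 TPM and OTX2 at 0.291 ± 0.066 TPM. Late RA-gastruloids thus held strong CD24 and SFRP2 transcripts beside almost no OTX2.

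**Figure D1:**
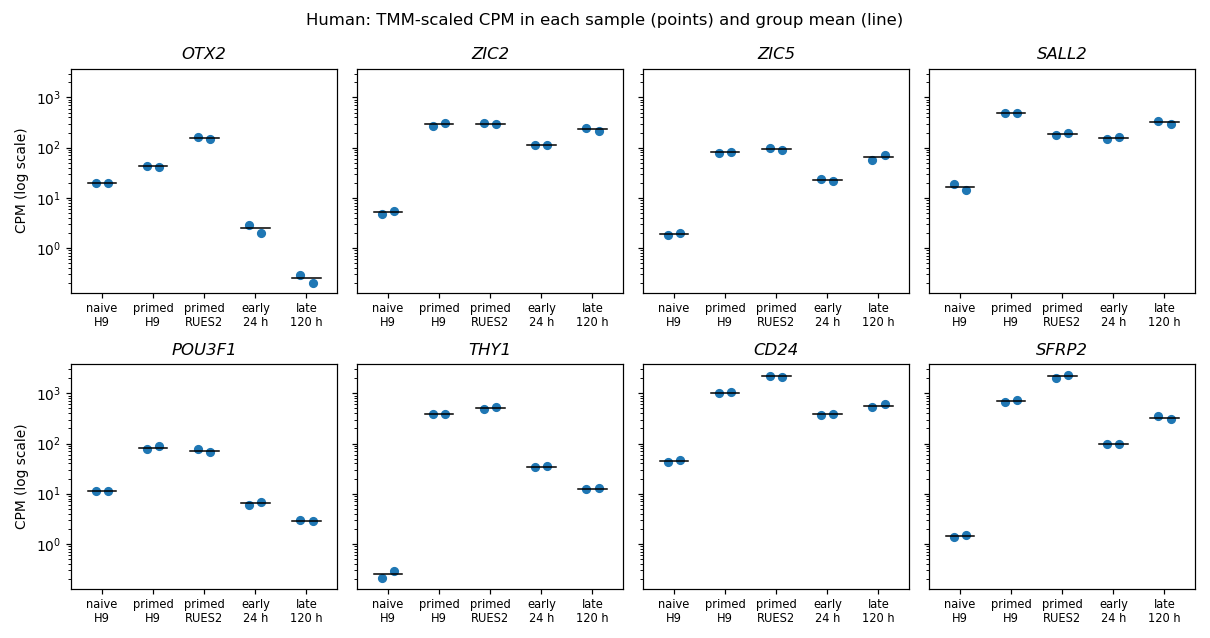
CPM on a log axis of the 8 members in each of the 10 human samples, with 1 panel per gene, points for the 2 replicates of a group and a line at their mean. THY1 sits at 0.209 and 0.286 in naïve H9 ESCs and above 380 in every primed sample, whereas OTX2 falls to 0.204 and 0.29 in late RA-gastruloids.

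The contrast that chose the members, primed against naïve H9, is given first and without a test. THY1, encoded on the minus strand at chr11:119415476-119424985 (GRCh38), had 0.209 and 0.286 CPM in the naïve H9 samples and 380 and 394 CPM in the primed H9 samples. The naïve values rest on 4 and 5 counts, near the limit of 3, so the ratio of the pooled counts, 1590, is imprecise. No interval is given for it, since this contrast chose THY1. SFRP2, at chr4:153780591-153789083 on the minus strand, had 1.36 and 1.49 CPM in naïve and 679 and 740 CPM in primed H9. These were the widest gaps among the members, with log2 fold changes of 10.58 for THY1 and 8.96 for SFRP2. ZIC2, ZIC5, SALL2 and CD24 followed with 5.81, 5.40, 4.90 and 4.48. POU3F1 reached 2.87 and OTX2 only 1.08, so OTX2 was the member that separated naïve and primed H9 least. Of all tested genes, 25.5% were called higher in this contrast, and nothing is read from the members beside it. The primed H9 samples also took part in choosing the members, so the next comparison is not independent of that choice.

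Primed RUES2-GLR and primed H9 ESCs ask how far a member's primed level depends on the line. Because primed H9 values helped to choose the members, the p-values and counts of this comparison serve as a description only. OTX2, at chr14:56799905-56816693 on the minus strand, had 162 and 146 CPM in RUES2-GLR against 43.8 and 40.3 CPM in H9. SFRP2 had 2048 and 2358 CPM in RUES2-GLR against 679 and 740 CPM, and CD24, at chr6:106969831-106975627 on the minus strand, had 2252 and 2133 against 996 and 1045 CPM. Both RUES2-GLR samples lay above both H9 samples for each of these 3 genes, a separation that was not counted over all genes. The log2 fold changes were 1.89 ± 0.12 (SE) for OTX2 (adjusted p = 1.91e-14), 1.63 ± 0.10 for SFRP2 (adjusted p = 2.21e-14) and 1.10 ± 0.10 for CD24 (adjusted p = 6.31e-11). SALL2, at chr14:21521080-21537216 on the minus strand, went the other way, with 182 and 194 CPM in RUES2-GLR and 499 and 495 CPM in H9. Its log2 fold change was −1.40 ± 0.11 (adjusted p = 3.64e-12).

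The other 4 members were not called between the lines. ZIC2 had a log2 difference of 0.06 ± 0.10 (adjusted p = 0.678), with 305 and 298 CPM in RUES2-GLR inside the H9 range of 272 to 308 CPM. POU3F1, a gene of 1 exon at chr1:38043829-38046793, had 76.6 and 67.4 CPM in RUES2-GLR and 76.2 and 89.8 CPM in H9, so its samples overlapped, at −0.19 ± 0.12 (adjusted p = 0.174). ZIC5 differed by 0.23 ± 0.12 (adjusted p = 0.101). THY1 differed by 0.42 ± 0.10 (adjusted p = 6.14e-04), a small difference under the fold threshold. In all, 3 of 8 members were called higher and 1 lower, where 17.1% and 12.2% of all tested genes were called higher and lower, and the median log2 fold change was 0.32 over the members and −0.12 over all genes. Higher genes made up 58.4% of all calls here, 68.7% with DESeq2 size factors, 71.2% with upper quartile scaling and 69% with mitochondrial genes left out, and the 4 member calls were made under each. Without mitochondrial genes OTX2 stood at 2.04 and SALL2 at −1.25. The median of all genes was −0.12 with TMM and 0.00 with DESeq2 size factors, and the differences given here are not shifted by it. The part of the mitochondrial share in these differences was not tested.

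Early RA-gastruloids set against the primed RUES2-GLR ESCs they came from ask what happens to primed factors as cells leave pluripotency. Of the 8 members, 7 fell and none rose, where 17.6% of all tested genes were called lower and 12% higher, and the median log2 fold change was −3.004 over the members against 0.08 over all genes. The choice of members favoured genes high in primed human cells, and so favoured falls from them. The count and median of the members in this step are therefore a description. OTX2 had 162 and 146 CPM in primed RUES2-GLR and 2.87 and 2.02 CPM in early RA-gastruloids, a log2 fold change of −5.97 ± 0.18 (adjusted p = 7.83e-23). This was the deepest fall of the 8, leaving OTX2 below its level in naïve H9 ESCs, where it had 20.1 and 19.6 CPM. SFRP2 fell from 2048 and 2358 CPM to 98.0 and 97.0 CPM, a log2 fold change of −4.50 ± 0.12 (adjusted p = 7.57e-24). THY1 fell from 495 and 541 CPM to 33.6 and 35.9 CPM, at −3.89 ± 0.12 (adjusted p = 1.34e-22), and remained far above its naïve H9 level. POU3F1 fell from 76.6 and 67.4 CPM to 6.03 and 6.96 CPM, at −3.49 ± 0.16 (adjusted p = 3.47e-18).

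CD24 and the ZIC pair fell less. CD24 went from 2252 and 2133 CPM to 372 and 391 CPM, at −2.52 ± 0.11 (adjusted p = 4.24e-19). ZIC5, at chr13:99962964-99971767 on the minus strand, had a log2 fold change of −2.03 ± 0.13 (adjusted p = 2.94e-14). ZIC2, at chr13:99981784-99986765 on the plus strand, kept 113 CPM in both early samples, down from 305 and 298 CPM, at −1.42 ± 0.11 (adjusted p = 1.24e-12). SALL2 was the exception, with 150 and 161 CPM in early RA-gastruloids against 182 and 194 CPM, and its difference of −0.27 ± 0.11 (adjusted p = 0.0424) was under the fold threshold. With upper quartile scaling the median over all genes in this step was −0.02. The 8 markers of primitive streak and nascent mesoderm, such as TBXT and MIXL1, summed to 4.45 to 4.66 CPM in primed RUES2-GLR and 900 to 945 CPM in early RA-gastruloids, and 8 of 8 rose. Of the 8, only MSGN1 had no count in either primed RUES2-GLR sample. The part of the mix of cells in these falls was not tested.

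From early to late RA-gastruloids the members parted ways, with 4 of 8 called higher and 3 lower, where 11.8% of all tested genes were called higher and 13.2% lower. The median log2 fold change was 0.80 over the members and 0.00 over all genes. The zinc finger factors and SFRP2 rose again. SFRP2 had 98.0 and 97.0 CPM in early and 350 and 305 CPM in late RA-gastruloids, at 1.75 ± 0.11 (adjusted p = 8.64e-15). ZIC5 went from 23.8 and 22.1 CPM to 57.8 and 71.3 CPM, at 1.48 ± 0.13 (adjusted p = 3.06e-11). SALL2 had 340 and 299 CPM in late RA-gastruloids, at 1.04 ± 0.11 (adjusted p = 2.05e-09), and ZIC2 had 242 and 217 CPM, at 1.03 ± 0.11 (adjusted p = 1.33e-09). Both late samples lay above both early samples for each of the 4 genes, which was not counted over all genes. For ZIC2 and SALL2 the fold lay at the threshold. ZIC2 dropped just under it with DESeq2 size factors (0.9996), with the DESeq2 Wald test (1.00), in a fit of these groups alone (0.9995) and without late replicate 1 (0.94). SALL2 dropped under it without early replicate 1 (0.99) and without late replicate 1 (0.94).

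OTX2, POU3F1 and THY1 continued to fall. OTX2 had 0.29 and 0.204 CPM in late RA-gastruloids, from 6 and 2 counts, and the ratio of pooled counts between early and late was 9.36 (exact 95% interval 4.4 to 22.9, counting error only). The fitted log2 fold change was −3.19 ± 0.42 (adjusted p = 1.61e-07), an SE smaller than that counting interval implies. THY1 fell to 12.4 and 12.8 CPM, at −1.47 ± 0.13 (adjusted p = 2.71e-11), and POU3F1 to 2.95 and 2.85 CPM, at −1.15 ± 0.21 (adjusted p = 3.70e-05). CD24 had 530 and 613 CPM in late RA-gastruloids, and its difference from early of 0.58 ± 0.10 (adjusted p = 1.29e-05) was under the fold threshold. Neural progenitor markers moved with this step, as 9 of 18 rose, PAX6, PAX3 and IRX3 among them, and 2 fell. Their summed level was 485 to 491 CPM in early and 1487 to 1676 CPM in late RA-gastruloids. Of the 6 tested somite and mesenchyme markers, 4 rose and 1 fell, with sums of 187 to 194 CPM and 257 to 289 CPM. Whether the members' levels follow these cell types was not tested.

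Over the whole course up to late RA-gastruloids, again set against primed RUES2-GLR ESCs, 5 of 8 members were lower and none higher, where 21% of all tested genes were called lower and 17.3% higher. Falls from primed human cells were favoured by the choice of members here too, so this count is a description. OTX2 ended −9.16 ± 0.23 on the log2 scale below its primed level (adjusted p = 5.31e-25), THY1 −5.36 ± 0.13 (adjusted p = 1.58e-25) and POU3F1 −4.64 ± 0.17 (adjusted p = 7.89e-21). The late OTX2 level rests on 6 and 2 counts, so the SE of OTX2 understates its counting error. SFRP2 and CD24 ended at −2.75 ± 0.11 (adjusted p = 5.42e-20) and −1.94 ± 0.10 (adjusted p = 9.34e-17). The ZIC pair and SALL2 missed the fold threshold. ZIC2 ended at −0.39 ± 0.11 (adjusted p = 0.00171), ZIC5 at −0.55 ± 0.12 (adjusted p = 2.24e-04) and SALL2, with a higher level than in primed RUES2-GLR, at 0.77 ± 0.11 (adjusted p = 4.5e-07). By adjusted p alone all 8 members would be called, as would 63.6% of all tested genes. The 3 steps share samples, so a level in early RA-gastruloids enters 2 of them.

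**Figure D2:**
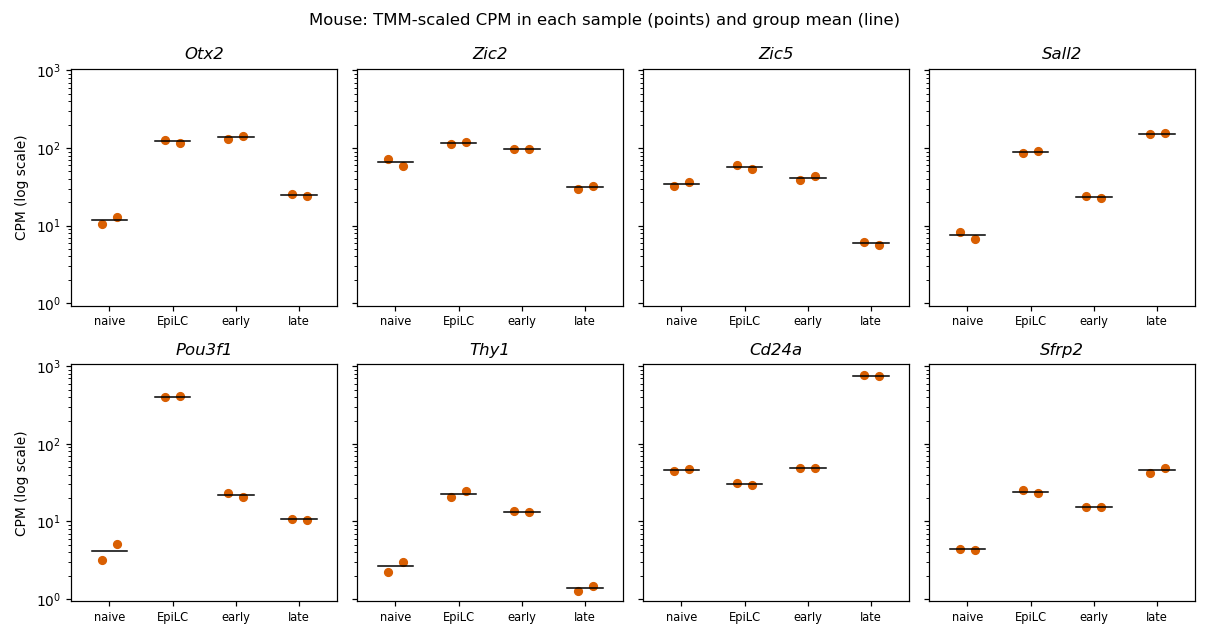
CPM on a log axis of 7 mouse members and Cd24a in each of the 8 mouse samples, with 1 panel per gene, points for the 2 replicates of a group and a line at their mean. Pou3f1 peaks in EpiLCs at 399 and 413, whereas Sall2, Sfrp2 and Cd24a are highest in late gastruloids.

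In mouse the members did not share 1 peak. EpiLCs held the highest mean of Zic2, Zic5, Pou3f1 and Thy1, early gastruloids that of Otx2, and late gastruloids those of Sall2 and Sfrp2. By rank of means alone, 4 of 7 mouse members were thus highest in EpiLCs. Of these, only Pou3f1 was called between EpiLCs and early gastruloids, while Zic2, Zic5 and Thy1 stayed under the fold threshold. How many of all genes are highest in EpiLCs was not counted. Pou3f1 was the most abundant member per length in EpiLCs at 373 ± 11.6 TPM, whereas Thy1 at 26.9 TPM and Sfrp2 at 40.0 TPM were the lowest there.

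From mouse naïve ESCs to EpiLCs, 5 of 7 members rose and none fell, where 17.7% of all tested genes were called higher and 12.1% lower. The median log2 fold change was 3.09 over the members and 0.02 over all genes. Pou3f1, at chr4:124550600-124554448 (GRCm39), had 3.20 and 5.20 CPM in naïve ESCs and 399 and 413 CPM in EpiLCs, at 6.53 ± 0.10 (adjusted p = 7.93e-50). Otx2 had 10.6 and 12.8 CPM in naïve ESCs and 128 and 117 CPM in EpiLCs, at 3.36 ± 0.10 (adjusted p = 6.67e-37). Sall2 rose from 8.36 and 6.72 CPM to 86.4 and 90.8 CPM, at 3.59 ± 0.11 (adjusted p = 5.79e-36). The 2 genes that gave the widest gaps in H9 moved less here. Thy1 went from 2.23 and 3.05 CPM to 20.7 and 24.8 CPM, at 3.09 ± 0.19 (adjusted p = 2.12e-21), and Sfrp2 from 4.46 and 4.30 CPM to 25.2 and 23.4 CPM, at 2.46 ± 0.16 (adjusted p = 2.55e-20). The difference between the human and mouse naïve to primed steps was not tested, since the human contrast chose the members.

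Zic2 and Zic5 were already abundant in mouse naïve ESCs. Zic2 had 71.6 and 59.1 CPM there and 112 and 120 CPM in EpiLCs, a log2 difference of 0.85 ± 0.08 (adjusted p = 4.75e-15), and Zic5 differed by 0.68 ± 0.09 (adjusted p = 6.14e-09). Neither reached the fold threshold. Both EpiLC samples lay above both naïve samples, which was not counted over all genes. Cd24a, which is not counted, had 45.4 and 48.2 CPM in naïve ESCs and 31.7 and 29.8 CPM in EpiLCs. Of the 11 tested naïve pluripotency genes, such as Esrrb, Klf4 and Tfcp2l1, 11 fell in this step, with a median log2 fold change of −5.47. Their summed level was 5131 to 5243 CPM in naïve ESCs and 780 to 800 CPM in EpiLCs.

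Set against EpiLCs, from which they were not made, early mouse gastruloids had 2 of 7 members lower and none higher, where 9.24% of all tested genes were called lower and 11.7% higher, and the median log2 fold change was −0.65 over the members and 0.01 over all genes. Pou3f1 had 23.3 and 20.8 CPM against 399 and 413 CPM in EpiLCs, at −4.19 ± 0.07 (adjusted p = 5.76e-47). Sall2 had 24.0 and 23.0 CPM against 86.4 and 90.8 CPM, at −1.92 ± 0.08 (adjusted p = 5.92e-29). Otx2 had 132 and 143 CPM in early gastruloids against 128 and 117 CPM in EpiLCs, at 0.17 ± 0.07 (adjusted p = 0.0245). The other members differed by −0.28 ± 0.07 (Zic2), −0.45 ± 0.09 (Zic5), −0.79 ± 0.13 (Thy1) and −0.65 ± 0.11 (Sfrp2). All stayed under the fold threshold, yet by adjusted p alone all 7 members would be called, as would 62.7% of all tested genes. Naïve pluripotency genes were higher than in EpiLCs for 10 of 11, and their sum in early gastruloids was 2507 to 2511 CPM. The part of cells that keep naïve transcripts in these values was not tested.

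Set against the naïve ESCs they were made from, early gastruloids had 5 of 7 members higher and none lower, where 16.2% of all tested genes were called higher and 6.81% lower. Otx2 was higher by 3.52 ± 0.09 on the log2 scale (adjusted p = 5.22e-38), Pou3f1 by 2.34 ± 0.14 (adjusted p = 3.84e-21) and Thy1 by 2.30 ± 0.20 (adjusted p = 5.47e-15). Sfrp2 and Sall2 were higher by 1.81 ± 0.17 (adjusted p = 3.23e-14) and 1.67 ± 0.13 (adjusted p = 2.42e-17). Zic2 and Zic5 differed by 0.57 ± 0.07 and 0.24 ± 0.09, under the fold threshold. This comparison shares its early samples with the one against EpiLCs. The one between EpiLCs and naïve ESCs uses the same naïve samples.

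From early to late mouse gastruloids all 7 members were called, 2 higher and 5 lower, where 20.1% of all tested genes were called higher and 19.1% lower. The median log2 fold change was −1.63 over the members and −0.03 over all genes. Sall2 rose from 24.0 and 23.0 CPM to 150 and 157 CPM, a log2 fold change of 2.70 ± 0.08 (adjusted p = 2.16e-37), and Sfrp2 from 15.3 and 15.4 CPM to 42.6 and 49.2 CPM, at 1.58 ± 0.11 (adjusted p = 5.28e-20). Otx2 fell from 132 and 143 CPM to 25.9 and 23.9 CPM, at −2.45 ± 0.09 (adjusted p = 3.21e-33). The ZIC pair fell as well. Zic5 went from 38.6 and 43.9 CPM to 6.18 and 5.65 CPM, at −2.78 ± 0.14 (adjusted p = 1.43e-25), and Zic2 from 96.1 and 95.8 CPM to 29.7 and 32.4 CPM, at −1.63 ± 0.09 (adjusted p = 1.03e-24). Thy1 fell by 3.28 ± 0.25 on the log2 scale (adjusted p = 1.05e-17), to 1.28 and 1.49 CPM. Pou3f1 fell to 10.8 and 10.6 CPM, at −1.05 ± 0.12 (adjusted p = 4.05e-11), and without early replicate 1 the value was −0.96, under the threshold. Cd24a had 49.6 and 48.5 CPM in early and 769 and 743 CPM in late gastruloids.

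Marker lists moved with this step too. Neural progenitor markers rose for 7 of 10 tested and fell for 1, with sums of 107 to 108 CPM in early and 246 to 258 CPM in late gastruloids. Somite and mesenchyme markers rose for 6 of 7 and fell for 1, from 41.9 to between 718 and 736 CPM, and fibroblast markers for 7 of 7, from between 8.38 and 9.92 to between 652 and 687 CPM. Endothelial markers rose for 3 of 5 and fell for 1, with sums of 147 to 149 and 237 to 238 CPM. THY1 and CD24 are also expressed by cell types other than pluripotent cells, fibroblasts and neurons among them. Their relation to these lists was not tested.

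**Figure D3:**
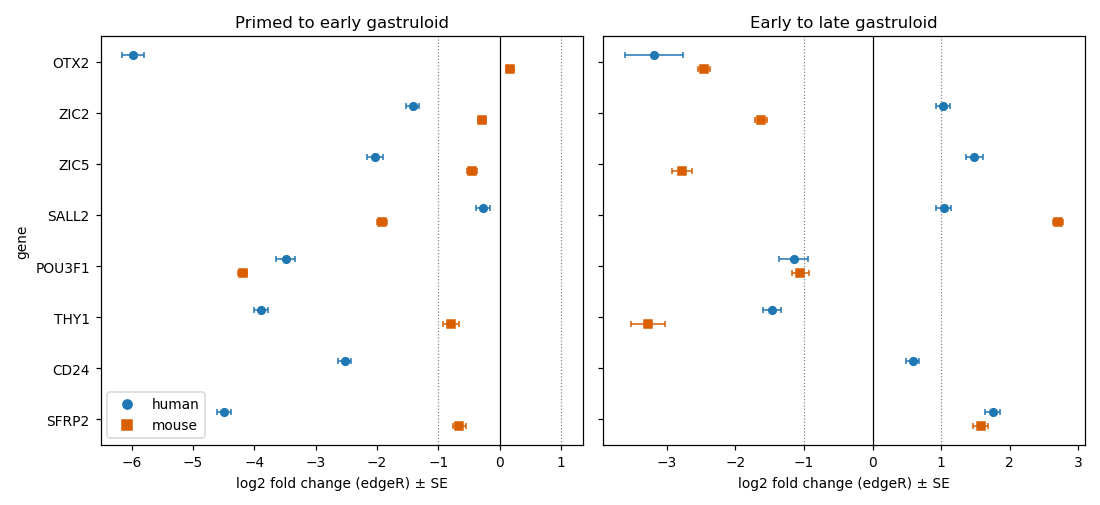
Fitted log2 fold change of each member with its SE, for primed to early gastruloid on the left and early to late on the right, with human values as circles, mouse values as squares and dotted lines at the fold threshold of 1. In the first step OTX2 is at −5.97 in human and 0.17 in mouse, and in the second step the ZIC pair lies above 0 in human and below 0 in mouse.

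The species were compared within 1 fit over 14006 genes matched by symbol, in which the difference itself was tested. Primed means RUES2-GLR ESCs in human and EpiLCs in mouse, and the stages differ in hours, medium and origin, so species and protocol cannot be told apart. In the step from primed to early, 6 of 7 members differed, 1 toward human and 5 toward mouse, where 12.9% and 19.7% of matched genes did. The choice of members by human samples favoured a fall in human in this step, so this count is a description. OTX2 gave −6.26 ± 0.19 (human minus mouse log2 fold change, adjusted p = 4.48e-25), with −5.97 in human and 0.17 between EpiLCs and mouse early gastruloids. SFRP2 gave −3.95 ± 0.15 (adjusted p = 2.14e-22) and THY1 −3.22 ± 0.16 (adjusted p = 1.30e-18), called lower in human and under the fold threshold in mouse. ZIC5 and ZIC2 gave −1.70 ± 0.17 and −1.25 ± 0.13. SALL2 gave 1.53 ± 0.14 (adjusted p = 1.98e-11), since it was called lower in mouse and in human missed the fold threshold. POU3F1 was called lower in both species and its difference of 0.59 ± 0.20 (adjusted p = 0.0115) was not called.

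In the step from early to late, 4 of 7 members differed, 3 toward human and 1 toward mouse, where 16.7% and 18.7% of matched genes did. ZIC5 gave 4.42 ± 0.20 (adjusted p = 7.97e-20) and ZIC2 2.81 ± 0.14 (adjusted p = 6.64e-19), as both rose in human and fell in mouse. THY1 gave 1.95 ± 0.29 (adjusted p = 5.56e-07), with a smaller fall in human, and SALL2 −1.52 ± 0.14 (adjusted p = 1.09e-11), with a larger rise in mouse. OTX2 at −0.59 ± 0.47 (adjusted p = 0.29), POU3F1 at 0.04 ± 0.28 (adjusted p = 0.925) and SFRP2 at 0.32 ± 0.14 (adjusted p = 0.0506) were not called. Mouse and human thus gave the same sign for OTX2, POU3F1, THY1, SALL2 and SFRP2 in this step, each past the threshold in both species.

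ZIC2 and ZIC5 are neighbours in both species, and their levels can be compared per length. The ratio of ZIC2 to ZIC5 TPM averaged 3.75 in naïve H9, 4.95 in primed H9, 4.43 in primed RUES2-GLR, 6.74 in early and 4.95 in late RA-gastruloids. ZIC2 was thus the more abundant transcript in every group. In mouse the ratio averaged 3.26 in naïve ESCs, 3.51 in EpiLCs and 3.96 in early gastruloids. Late mouse gastruloids stood apart with 8.17 and 9.74, above every other sample in the set, where Zic5 had the lower level.

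**Figure D4:**
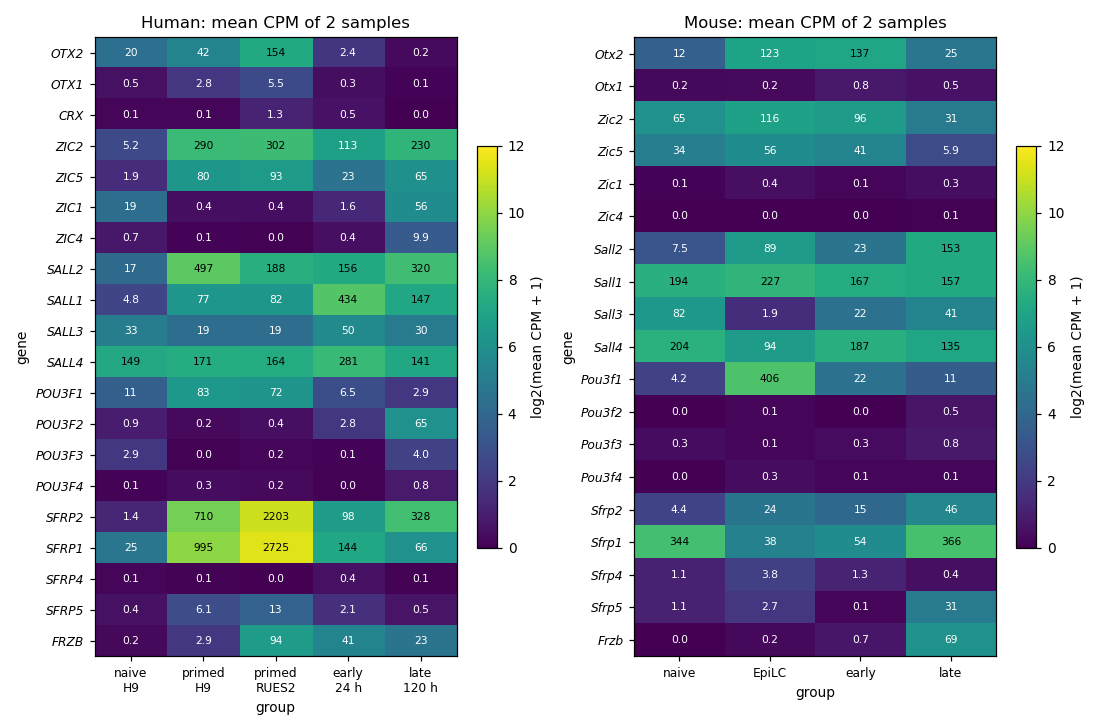
Mean CPM of the members' families in each group, printed in each cell with colour as log2 of mean CPM plus 1, human on the left and mouse on the right, to be read along a row. SALL1 is highest in early RA-gastruloids, where ZIC2, ZIC5 and SFRP2 are lower than in the primed lines, and POU3F2, ZIC1 and ZIC4 are highest in late RA-gastruloids.

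Other genes of the OTX, ZIC, SALL, POU3F and SFRP families (14 listed, 12 tested in human and 7 in mouse) did not move as a block. From primed RUES2-GLR to early RA-gastruloids 4 of 12 rose and 4 fell, with a median log2 fold change of 0.65. The spalt genes SALL1 and SALL3 rose, SALL1 from 80.2 and 83.1 CPM to 423 and 446 CPM, while SALL2 was not called. SFRP1, a WNT modulator related to SFRP2, fell beside it by 4.24 ± 0.11 on the log2 scale (adjusted p = 3.60e-24), and OTX1 fell beside OTX2. From early to late, 4 of 12 rose and 4 fell, with a median of −0.90. The risers were ZIC1, ZIC4, POU3F2 and POU3F3, genes known from the developing nervous system, and ZIC1 went from between 1.61 and 1.63 CPM to between 50.7 and 60.4 CPM. POU3F2 reached 61.7 to 68.9 CPM in the late samples, where POU3F1 was at its lowest. SFRP1 fell again, at −1.13 ± 0.10 on the log2 scale, while SFRP2 rose. Between the primed lines 4 of 12 were higher in RUES2-GLR and none lower, FRZB and SFRP1 among them, and late against primed RUES2-GLR 4 rose and 5 fell.

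In mouse, 2 of 7 tested family genes rose and 3 fell from naïve ESCs to EpiLCs, 2 rose and 2 fell from EpiLCs to early gastruloids, and 3 rose and 1 fell from early to late. Sfrp1 had 343 and 344 CPM in naïve ESCs and 36.3 to 38.97 CPM in EpiLCs, the opposite direction to Sfrp2 in that step. Both rose from early to late, Sfrp1 by 2.75 ± 0.06 on the log2 scale (adjusted p = 4.01e-43). Pou3f2, Zic1 and Zic4 had at most 6 counts in any mouse sample. Early gastruloids against naïve ESCs gave 1 rise and 3 falls.

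Other genes of primed pluripotency, 20 in the list, are given beside the members. The list was chosen with earlier results of these data known, so it is no independent evidence about the members. For this and the other gene lists, the shares called over all tested genes are those given above for the same step. From primed RUES2-GLR to early RA-gastruloids 11 of 19 tested fell and 2 rose, with a median of −1.82. PODXL, a surface sialomucin, fell by 5.28 ± 0.12 on the log2 scale (adjusted p = 2.32e-25) and TDGF1, a NODAL co-receptor, changed by −7.55 ± 0.16 (adjusted p = 2.61e-25). DNMT3B, a DNA methyltransferase, fell by 2.16 ± 0.10 (adjusted p = 1.00e-17), whereas LIN28B, an RNA-binding protein, rose by 1.32 ± 0.12 (adjusted p = 6.60e-11). Not every listed gene was higher in primed than in naïve human cells. LIN28B had a mean of 242.6 CPM in naïve H9, 133.7 in primed H9 and 84.15 in primed RUES2-GLR. PODXL went the other way, with 23.84, 1426 and 2430 CPM in the same groups. From early to late 3 of 19 rose and 6 fell, and late against primed RUES2-GLR 3 rose and 11 fell. Between the primed lines 4 were higher and 4 lower. FGF5, a ligand widely used to mark primed mouse cells, had no count in any primed human sample, below limits of 0.0774 to 0.8148 CPM, although Fgf5 reached 50.2 to 55.1 CPM in EpiLCs. In mouse, 11 of 18 rose and 1 fell from naïve ESCs to EpiLCs, with a median of 3.03, Dnmt3a and Dnmt3b among them, at 4.50 ± 0.06 and 3.68 ± 0.05 on the log2 scale. From EpiLCs to early gastruloids 3 rose and 8 fell, and from early to late 6 rose and 6 fell. Against naïve ESCs, early gastruloids had 11 higher and 2 lower.

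The naïve list and the remaining marker lists give the setting of the human samples. Naïve pluripotency genes summed to 4953 to 5223 CPM in naïve H9 ESCs and 137 to 174 CPM in the primed lines, and KLF17, a defining naïve gene, had no count in the primed samples. From primed RUES2-GLR to early RA-gastruloids 7 of 12 naïve genes fell and 2 rose, and from early to late 4 fell. Between the primed lines 3 were lower in RUES2-GLR. Fibroblast markers summed to 665 to 686 CPM in naïve H9 and 299 to 307 CPM in primed H9. The sum was 586 to 655 CPM in primed RUES2-GLR, and DCN, LUM and FAP had no count in either primed line. In naïve H9, which had been grown on feeders, no fibroblast marker was at 0 in both samples. The same held in early and in late RA-gastruloids. From primed RUES2-GLR to early RA-gastruloids 3 of 8 fibroblast markers rose and 1 fell, to a sum of 1064 to 1125 CPM, and 4 of 4 tested endothelial markers fell. From early to late 4 of 8 fibroblast markers rose and 1 fell, to 646 to 761 CPM, and 3 of 4 endothelial markers rose. The 3 core pluripotency genes fell from primed RUES2-GLR to early RA-gastruloids, and from early to late SOX2 rose while POU5F1 and NANOG fell. Between the primed lines 10 of 18 neural progenitor markers were higher in RUES2-GLR and 2 lower, with sums of 472 to 500 CPM against 404 to 426 CPM. SIX3, RAX and LHX5, genes of the anterior neural plate where OTX2 is also known, were among the higher ones. Their part in the higher OTX2 of RUES2-GLR was not tested.

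Reads were counted without strand, so transcripts on opposite strands cannot be told apart where exons overlap. THY1 shares 232 exon bases with USP2-AS1, Otx2 154 with Otx2os1, Zic5 704 with Gm56762 and Sfrp2 224 with Gm26771. OTX2 has 2 and CD24 has 4 annotated pseudogenes, and reads that matched several places were not counted, so the levels of these genes are uncertain by the reads lost.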

How the data were processed

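RNA was enriched by poly(A), and libraries were sequenced as paired ends in either of a pair of configurations that are not assigned to single samples in the sources used here. Per the submitters' processing notes and the methods, bcl2fastq 2.20, FastQC, Trimmomatic 0.39, STAR and featureCounts were used on GRCh38 and GRCm39. The deposited values are raw counts per gene, which the authors obtained without strand as far as default settings tell, and the release of the annotation is not given in the sources used here. Depth set the precision of low genes, and all limits and intervals cover counting error only.

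Counts were filtered with filterByExpr, scaled with TMM factors and tested with edgeR 4.0.16 (quasi-likelihood) in R 4.3.3, in 1 fit per species with a coefficient for each of its groups. P-values were adjusted by Benjamini-Hochberg over all tested genes. Differences between species used an interaction contrast over genes matched by symbol. The test was also tried on counts simulated from the means and spread of these data, with an outcome that is not given here. Alternatives were DESeq2 size factors, upper quartile scaling, no filter, adjusted p alone, the DESeq2 1.42.0 Wald test, the compared groups alone, a replicate block and leaving out each sample. Figures and tables used Python 3.11.15.

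The members and all lists were chosen with earlier results of these data known. Genes named are the members, Cd24a, other genes of their families (1 gene of that list is not reported here), up to 6 genes of a primed list with the highest mean CPM, and for each member the 3 genes with the most similar profile. FGF5, MSGN1, KLF17 and single genes of the marker lists were named after their values were seen. Symbols came from GENCODE releases 44 (44876 of 44910 identifiers matched) and M39 (29486 of 29720), gene positions and exon overlaps from the coordinates in the deposited tables, and promoters from RefSeq. Gene length was used for TPM only.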

Additional observations from a re-analysis of the deposited data

Results flagged for a closer look

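The change of 6 members from primed cells to early gastruloids differed between human and mouse in an interaction contrast (human minus mouse log2 fold change, edgeR quasi-likelihood, adjusted over all matched genes). The differences were −6.26 for OTX2, −3.95 for SFRP2, −3.22 for THY1, −1.70 for ZIC5, −1.25 for ZIC2 and 1.53 for SALL2. The choice of members favoured a fall from primed human cells, so these differences are not independent of it.

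The change of 4 members from early to late gastruloids also differed in the same test. The differences were 4.42 for ZIC5, 2.81 for ZIC2, 1.95 for THY1 and −1.52 for SALL2. The second set shares its early samples with the first, and species cannot be told apart from protocol.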

How the results depend on the processing

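Of 842 fold changes of single genes recomputed under the alternatives, 835 stayed on their side of the threshold and 7 dropped under it. No called value changed sign (0 reversed), whereas 6 uncalled values did. Of 124 counts of members, 122 stayed within 1.5 times. By adjusted p alone, 8 rather than 5 members were called between late RA-gastruloids and primed RUES2-GLR, and 7 rather than 2 between mouse early gastruloids and EpiLCs. Those calls come from dropping the fold threshold. Leaving out 1 sample gave 5 to 7 members from early to late RA-gastruloids, the 5 without late replicate 1, and 6 to 7 from early to late mouse gastruloids, and moved no other count. Same-numbered samples showed little shared deviation over the tested genes (correlations −0.112 to 0.0684 in human and −0.0483 to 0.00806 in mouse). A small shared deviation, or one limited to some genes, could escape this check. With a replicate block the counts were 4, 7, 7 and 5 in human, 5, 2, 7 and 5 in mouse and 6 and 4 between species, as without it. Leaving out mitochondrial genes was added after seeing the data and changed no call of a member. Depth limits THY1 in naïve H9 and OTX2 in late RA-gastruloids, which rest on 9 and 8 counts.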

Other observations

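For each member the 3 tested genes with the most similar log2 CPM profile are given as a description over 10 human or 8 mouse samples, which share libraries and stages. OTX2 was followed most closely by CDH3 (Pearson r 0.995), KCNK1 and CHST4. SFRP2 and CD24 were each most like ROR1, a receptor of WNT ligands (r 0.997 and 0.998), and were among each other's nearest genes (r 0.995), with FZD7, a WNT receptor, also near SFRP2. THY1 was most like TMEM63C, SLC38A4 and GLP1R, and POU3F1 most like SH2D3C, ICA1 and TRIM71. SALL2 was most like RAB33A, SHROOM4 and GYG2. ZIC2 was most like BEX2, FANCF and GJC1, and ZIC5 most like IGF1R, AUTS2 and BEX2, while ZIC2 and ZIC5 had an r of 0.992 with each other.

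Such likeness is common in these data. Between 349 and 854 human genes had an r above 0.9 with a given member. Over the 7 mouse members the range was 362 to 1348, and Otx2 was nearest to Grhl2, Pou3f1 to Tubb6, Sall2 to Ogfrl1, Sfrp2 to Suv39h1, Thy1 to Gm4779, Zic2 to Egln3 and Zic5 to Clcn3. With Spearman correlation 0 of 16 genes kept 2 or 3 of their 3 nearest genes and 13 kept 0, whereas with a prior count of 0.5 15 of 16 kept 2 or 3.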
